A study of Mus musculus with 3 samples.

Results

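The 9 genes Ccr1, Ccr2, Ccr3, Ccr7, Ccrl2, Cx3cr1, Cxcr2, Cxcr3 and Cxcr4 encode chemokine receptors and were picked by gene symbol from the 55536 annotated genes of the tables. They were read in cytosolic RNA of bone marrow-derived mouse macrophages, which are primary cells grown out of marrow progenitors. The cells were of strain C57BL/6J and had received 100 ng/ml Lipid A, the Toll-like receptor 4 ligand of bacterial lipopolysaccharide, for 40 minutes. Age and sex of the animals were not collected, per the labels. The 3 libraries are biological replicates 1, 2 and 3 of this 1 group and share 1 donor record, so any p-value measures only how far these samples lie apart, and that spread may be technical. Untreated cells were not analysed here, and no level below is a response to Lipid A.

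Most chemokine receptors, but not Ccrl2, couple in the plasma membrane to inhibitory G proteins, through which a gradient of chemokine steers a leukocyte. Inflammatory receptors such as Ccr1 and Ccr2 bring monocytes and macrophages into tissue, whereas Ccr7 leads dendritic cells and lymphocytes to lymph nodes and Cxcr4 holds cells in the marrow. Ccrl2 binds the attractant chemerin without driving migration itself and presents it to cells that carry the chemerin receptor Cmklr1.

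Ccrl2 and Cxcr4 were the 2 highest members, and the bases just before their starts are shown because these promoters differ in make-up. RefSeq promoter sequences on GRCm38.p6 were found for 8 of the 9 members by symbol, and Ccr7 is named only. Each line gives the 120 bases before a RefSeq start, 5′ to 3′ on the strand of the gene, at chr9:111057519-111057638 (minus strand) for the first of 3 Ccrl2 promoters and at chr1:128592300-128592419 (minus strand) for Cxcr4. Capitals mark the NF-kB consensus in Ccrl2, and the TATAAA motif on both strands and GGGCGG read on the opposite strand in Cxcr4.
Ccrl2: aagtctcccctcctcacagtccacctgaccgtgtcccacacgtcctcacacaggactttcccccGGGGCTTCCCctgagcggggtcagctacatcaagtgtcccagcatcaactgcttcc
Cxcr4: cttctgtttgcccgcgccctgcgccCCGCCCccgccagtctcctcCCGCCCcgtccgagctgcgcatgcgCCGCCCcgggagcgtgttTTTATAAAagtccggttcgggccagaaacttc
The 6 motifs searched were chosen after these sequences had been seen, on both strands of the 250 bases before each start, and a match is a description of letters only. The NF-kB consensus lay at -56 to -47 in that Ccrl2 promoter and, on the opposite strand, at -179 to -170 in Ccr3, and 3.90% of the 32851 mouse promoters in the RefSeq table held it. Of the 8 members with a promoter sequence, Cxcr4 alone held TATAAA, at -30 to -25 and overlapping on the opposite strand, a motif found in 12.4% of promoters. GGGCGG occurred 3 times before Cxcr4 and once, outside the bases shown, before Ccrl2, against 32.7% of promoters with at least 1 match. GAGGAA was present before Ccr1, Cxcr3, Ccr3 and Cxcr2 (23.3% of promoters), TGANTCA before Ccr3 (6.75%) and TGACGT in the other Ccrl2 promoters (6.47%), which overlap each other.

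Levels are TPM of the gene table, an abundance per length, given for replicates 1, 2 and 3 in that order and as mean ± SD over n = 3 libraries. In these bulk libraries, fewer cells with a message and less message per cell cannot be told apart. Replicate 3 was the deepest library, with 58889061 expected counts against 37861150 and 37136495. Nuclear protein-coding genes held 32.8%, 36.2% and 23.5% of the TPM, and the 7SL RNA genes Rn7s1 and Rn7s2 held 55.7%, 49.5% and 58.4%. Coding genes as a class therefore had the smallest part of the TPM in replicate 3, and what RNA took their place was not tested. Values rescaled to the sum over nuclear coding genes are therefore given where they alter an order of libraries. All 8 macrophage markers, among them Lyz2, Cd68 and Cd14, were at 1 TPM or more, with a summed level between 5615 and 9575 TPM.

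Of the 9 members, 6 had a mean of at least 1 TPM, as did 43.0% of all 22015 nuclear coding genes, and 2 were in the highest 10% of the 11445 coding genes with at least 0.1 TPM. These were Ccrl2 and Cxcr4. Cxcr4 lay near the limit of 41.7 TPM, with a mean of 44.3 ± 17.5 (SD, n = 3) and rank 1069. The summed level of all members was 260.5, 226.2 and 130.3 TPM. Ccrl2 held 65.1% ± 2.95 of that sum (SD, n = 3), Cxcr4 21.2% ± 3.23 and Ccr1 9.21% ± 2.74. Together these 3 genes held 95.5% ± 1.27, so the receptor messages were concentrated in few genes.

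**Figure D1:**
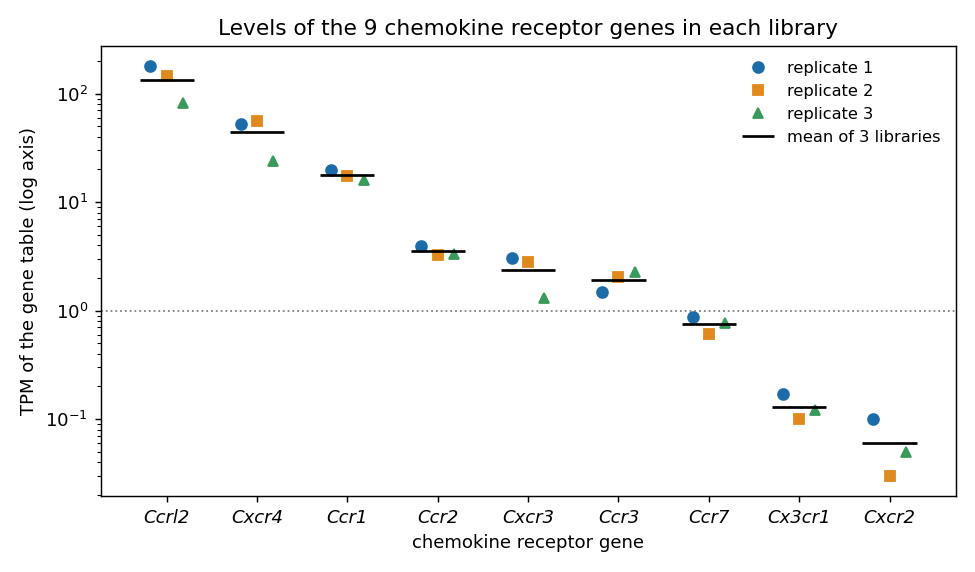
TPM of each receptor gene in each library (points, log axis) with the mean of the 3 libraries (bars), ordered by mean. Ccrl2 lies above 80 TPM in all libraries, the dotted line marks 1 TPM, and the points of Cxcr3 and Ccr3 overlap.

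Ccrl2, the chemerin-presenting receptor, lies on chromosome 9 from 111054486 to 111057519 on the minus strand. Its level was 178.3, 144.0 and 82.2 TPM, from 14479, 12427 and 14543 expected counts. Replicate 3 was the lowest on the TPM scale and stayed so after rescaling to coding genes, with 544, 398 and 349 TPM. With 134.8 ± 48.7 TPM (SD, n = 3) it ranked 346 among the 11445 detected coding genes, within the highest 3.02%. Its ligand gene Rarres2, which encodes chemerin, had a count of 0 in every library, which allows at most 0.0687 TPM with 3 counts taken as the limit. The signalling chemerin receptor Cmklr1 stood at 18.3, 15.7 and 12.6 TPM, below Ccrl2 in each library.

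Among the CC receptors for inflammatory chemokines, Ccr1 was the most abundant. Its level was 19.9, 17.2 and 16.1 TPM, or 17.8 ± 1.94 (SD, n = 3), from 2841, 2320 and 4666 counts. The highest library was 1.23 times the lowest for Ccr1, with replicate 3 at the bottom. After rescaling to coding genes replicate 3 was on top, at 60.7, 47.7 and 68.5 TPM, and the ratio was 1.44. Ccr2, the receptor that brings Ly6C-high monocytes out of the marrow, stood at 3.97, 3.25 and 3.31 TPM, or 3.51 ± 0.40, and at 12.1, 8.99 and 14.1 TPM after rescaling, where replicate 3 again moved to the top. Its expected counts of 735.78, 570.02 and 1214.15 were not whole numbers, so part of its reads was divided with another feature, and its level is uncertain by that part. Ccr3, the eotaxin receptor known from eosinophils, read 1.49, 2.02 and 2.25 TPM from 249, 318 and 760 counts. It was highest in replicate 3 on both scales of the gene table, at 4.55, 5.58 and 9.56 TPM after rescaling, where the highest library was 2.10 times the lowest. In the second transcript table, without rescaling, replicate 3 was the lowest for Ccr3, at 0.699, 0.956 and 0.691 TPM. The estimated counts of Ccr3 there were 282, 378 and 857, highest in replicate 3, the deepest library.

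The CXC receptors ran from the second highest to the lowest member. Cxcr4, the receptor of Cxcl12, was at 52.7, 56.1 and 24.2 TPM, from 4144, 4079 and 3797 counts. Replicates 1 and 2 were alike and replicate 3 was under both, also after rescaling (161, 155 and 103 TPM). Cxcr3, the receptor of interferon-induced chemokines, was likewise lowest in replicate 3, with 3.05, 2.80 and 1.31 TPM from 252, 217 and 219 counts. Cxcr2, the neutrophil receptor of Cxcl1 and Cxcl2, was the lowest member with 0.10, 0.03 and 0.05 TPM. It had 15, 4 and 12 counts, with exact 95% Poisson intervals of 8.40 to 24.7, 1.09 to 10.2 and 6.20 to 20.96 counts, which cover counting error only. The estimated counts of the second transcript table were 32.0, 20.3 and 42.3 for Cxcr2, 3.05 times those of the gene table in sum, while its mean TPM was 0.06 in both.

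Ccr7 and the fractalkine receptor Cx3cr1 were the other members under 1 TPM. Ccr7 read 0.87, 0.61 and 0.77 TPM from 84, 55 and 149 counts, highest in replicate 1. After rescaling it was highest in replicate 3, at 2.66, 1.69 and 3.27 TPM. Cx3cr1, a marker of patrolling monocytes and microglia, read 0.17, 0.10 and 0.12 TPM from 33, 18 and 47 counts. The second table gave Cx3cr1 37.1, 45.2 and 64.7 estimated counts, more than the gene table in each library. The annotated span of Cx3cr1 on chromosome 9, 119901616 to 120069879, also contains Csrnp1 (136 TPM on average) and Wdr48 (8.92 TPM), but neither shares exon bases with it. Of its 4505 exon bases, 78 are shared with the opposite-strand gene Gm33858, which was at 0.01 TPM.

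The second transcript table gave lower TPM for 8 of the 9 members. Ccrl2 was at 90.7, 72.9 and 25.99 TPM there, or 63.2 ± 33.4 (SD, n = 3), against 134.8 in the gene table. Mean levels in the second table were 20.9 TPM for Cxcr4, 7.01 for Ccr1, 1.49 for Ccr2, 1.01 for Cxcr3, 0.78 for Ccr3, 0.30 for Ccr7 and 0.07 for Cx3cr1. The counts did not fall with the TPM. Summed over the libraries, estimated counts of the second table were above the expected counts of the gene table for all 9 members. The ratio ran from 1.07 for Ccr1 to 3.05 for Cxcr2. For Ccrl2 the estimated counts were 15652, 14735 and 15426, against 14479, 12427 and 14543. The TPM levels thus depend on the quantification, and what lowered them was not tested. The order of the means was the same in both tables.

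Neighbours in the order of levels were compared within each library as differences of log2(TPM + 1), a scale that understates differences of low genes. A pair was taken to differ beyond its spread where the difference had 1 sign in all 3 libraries and its mean was over 2 SD, which held for 6 of 8 pairs. The order itself was taken from the mean TPM of these same 3 libraries. The sign of each mean difference was thus largely fixed beforehand, and the count of pairs is a description. Ccrl2 exceeded Cxcr4 by 1.60 ± 0.22 (SD, n = 3), Ccr1 exceeded Ccr2 by 2.05 ± 0.06, Ccr3 exceeded Ccr7 by 0.73 ± 0.28 and Ccr7 exceeded Cx3cr1 by 0.63 ± 0.07. Cxcr4 exceeded Ccr1 by 1.36, 1.65 and 0.56, so that the gap in replicate 3 was the narrowest, and this pair was no longer beyond its spread without replicate 1 (1.10) or without replicate 2 (0.96). Ccr3 and Ccr7 were likewise no longer beyond their spread without replicate 2 (0.64) or without replicate 3 (0.66). Cx3cr1 exceeded Cxcr2 by 0.09 ± 0.003 in the gene table, where the small SD reflects values near 0 on this scale, and in the second table Cxcr2 was the higher of the 2 in replicate 1.

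The order of Ccr2, Cxcr3 and Ccr3 was not settled. Ccr2 exceeded Cxcr3 by 0.30, 0.16 and 0.90, a mean of 0.45 under 2 SD, although this pair was beyond its spread without replicate 3. Cxcr3 exceeded Ccr3 by 0.70 and 0.33 in replicates 1 and 2 and was 0.49 below it in replicate 3. Both tables put these 2 genes in reverse order in replicate 3 alone. An exact two-sided sign-flip permutation test over 3 libraries cannot give less than p = 0.25, so it allowed no call. It gave 0.25 for 7 of the 8 pairs and 0.75 for Cxcr3 against Ccr3 (0.286 and 0.75 after Benjamini-Hochberg adjustment over the 8 pairs).

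Whether a receptor varied between the libraries more than genes of like abundance was tested on the counts with edgeR's goodness-of-fit test. Of 12250 genes tested, 1.56% were called at an adjusted p under 0.05, and none of the 8 members tested was (0 called). Cxcr2 was too low to be tested. At an unadjusted p under 0.05 there were 2 members, Ccr3 and Cxcr4, and 764 of all genes. On the TMM-normalized log2 CPM scale, which is not per length, Ccr3 was 2.72, 3.06 and 3.75, a 2.04-fold range with replicate 3 on top (edgeR adjusted p = 0.334). Cxcr4 was 6.77, 6.73 and 6.07, with replicate 3 at the bottom (edgeR adjusted p = 0.357).

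The libraries did not move as 1 block over the receptors. Ccrl2 (8.57, 8.34 and 8.01 log2 CPM), Cxcr4 and Cxcr3 (2.74, 2.51 and 1.97) were lowest in replicate 3. Ccr1 (6.23, 5.92 and 6.37), Ccr2 (4.28, 3.90 and 4.43), Ccr3 and Ccr7 (1.17, 0.56 and 1.42) were highest there. For 3 of the 8 tested members, or 37.5%, replicate 3 was the lowest library, as for 32.7% of all genes tested. The median SD over libraries was 0.39 log2 CPM for these 8 members and 0.16 for all genes tested. Abundance differs between those sets. Among genes within 0.5 log2 CPM of a member, the share with a smaller SD than that member ran from 59.8% for Cx3cr1 to 96.8% for Cxcr4. The part of the lower coding share, and of the higher level of the nuclear RNA Malat1 in replicate 3 (291, 264 and 898 TPM), in these differences was not tested.

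**Figure D2:**
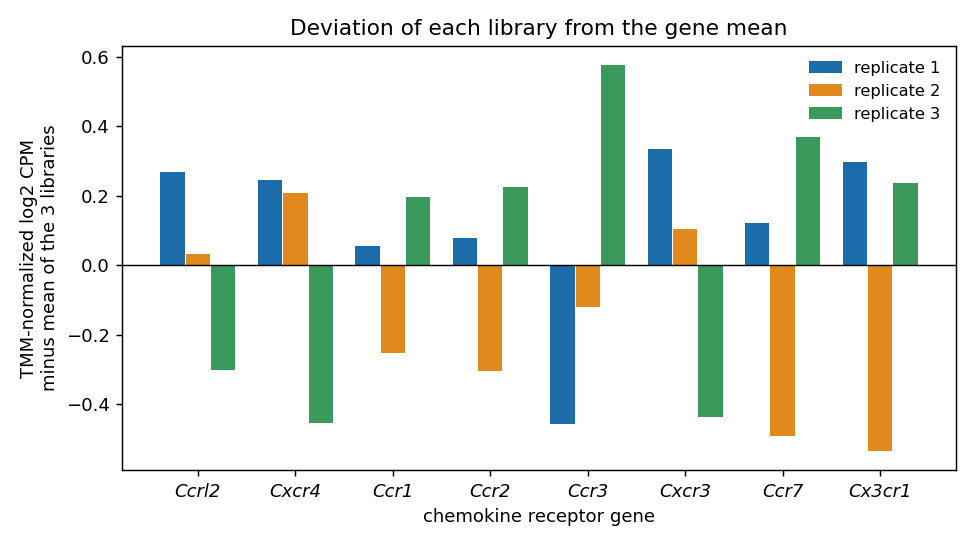
TMM-normalized log2 CPM of the 8 tested receptors in each library, minus the mean of the 3 libraries. Replicate 3 is below the mean for Ccrl2, Cxcr4 and Cxcr3 and above it for Ccr1, Ccr2, Ccr3, Ccr7 and Cx3cr1.

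Of the 9 members, 5 have more than 1 annotated transcript, and the transcript with the highest mean share was the same in both transcript tables for 5 of 5. Ccrl2 has 3. Ccrl2-203, whose annotated start at 111057519 is the last base of the promoter window shown, held 69.5%, 63.3% and 75.5% of the gene's TPM in the first table and 59.0%, 61.0% and 65.3% in the second. Ccrl2-201 starts at 111057270 and carries the same coding length of 1083 bases with a longer 3′ UTR (860 against 514 bases), and it held 12.6%, 27.1% and 14.5%. Ccrl2-202 has a coding length of 399 bases and no annotated 3′ UTR, and it held 17.9%, 9.62% and 9.99%. In the second table these shares were 10.7%, 23.0% and 14.05% for Ccrl2-201 and 30.3%, 16.04% and 20.7% for Ccrl2-202, so that their mean order turned. Replicate 2 had the largest share of Ccrl2-201 in both tables, and replicate 1 the largest share of Ccrl2-202.

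Cxcr4-201, the transcript of 2 exons with a complete coding sequence, held 82.4% ± 1.39 (SD, n = 3) of Cxcr4 in the first table and 75.7% ± 3.37 in the second. Cxcr4-202, whose annotated coding sequence is incomplete, took the rest. All 4 Ccr2 transcripts encode the same coding length of 1122 bases and differ in UTRs. The 1-exon Ccr2-202 held 71.7% ± 2.70 of Ccr2 in the first table and 57.5% ± 4.27 in the second, while Ccr2-201 held 10.3% ± 1.95 and 23.8% ± 4.37. For Ccrl2-202, Ccrl2-203, both Cxcr4 transcripts, Ccr2-201 and Ccr2-202 the mean shares of the quantifications differed by more than either SD over libraries. Cx3cr1-201 held 95.3% ± 4.28 of Cx3cr1. For Cxcr2 the first table gave Cxcr2-202 all of the TPM in replicates 1 and 2 and none in replicate 3, from at most 15 counts, and the second gave it 95.1% ± 4.52.

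**Figure D3:**
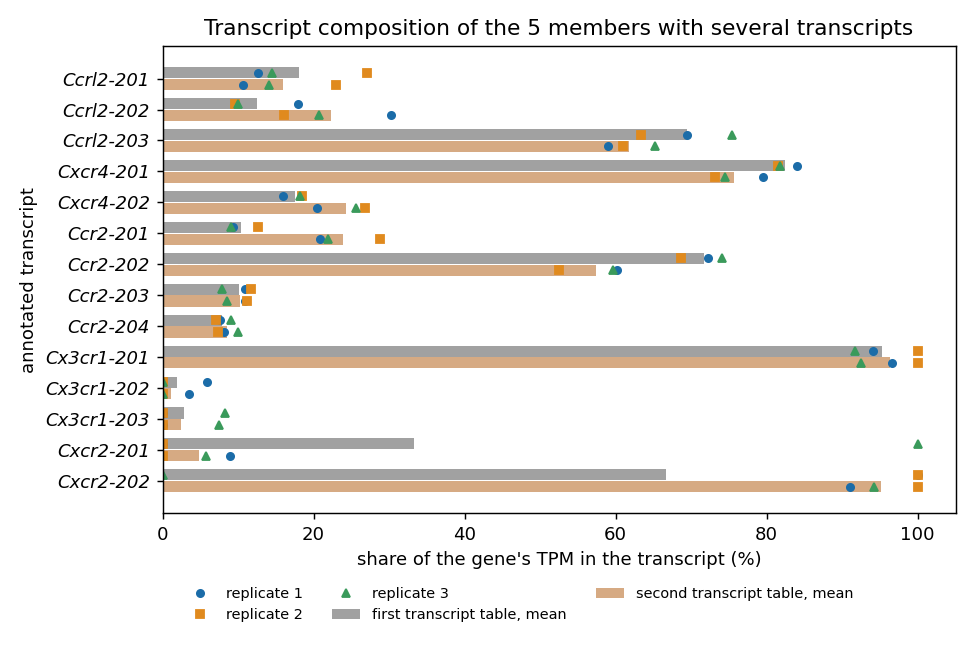
Share of each gene's TPM in its annotated transcripts, for both transcript tables (bars, mean; points, libraries). Ccrl2-203, Cxcr4-201, Ccr2-202 and Cx3cr1-201 lead in every library of both tables, and Cxcr2 changes sides between libraries in the first table.

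The ATTTA pentamer of AU-rich elements, which mark unstable messages, was counted in the longest annotated 3′ UTR of each member. Ccr2 had 8 in 2701 bases, Ccrl2, Ccr3 and Cxcr2 had 2 each, Cxcr4, Ccr1 and Cx3cr1 had 1 each, and Cxcr3 and Ccr7 had 0. For Ccr2 and Ccrl2 this was not the main transcript. Ccr2-203 held 10.1% of the gene's TPM in the first table and Ccrl2-201 18.1%. The 3′ UTRs of the main transcripts are shorter, with 2334 bases in Ccr2-202 and 514 in Ccrl2-203. Of 11346 detected coding genes with a 3′ UTR, 69.7% had at least 1, with a median of 2 and a median length of 1151.5 bases. The longer nonamer TTATTTATT was in none of the 9 (0 matches), and 8.11% of those genes had it.

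The 26 ligand genes listed for the members ran from 0 to 649 TPM, and 14 of 26 were at 1 TPM or more. The highest were Cxcl2 (649 ± 220 TPM, SD, n = 3), Ccl3 (523 ± 237) and Ccl4 (482 ± 163). Ccl4, Ccl8 and Ccl26 were assigned to none of the members and enter no sum below. The 5 ligands of Ccr1 had the highest sum of any member, with 1171, 1436 and 756 TPM, led by Ccl3. The 3 ligands of Ccr2, led by Ccl2 (208 TPM), summed to 515, 442 and 293 TPM. Those of Ccr3, led by Ccl7 (170 TPM), summed to 205, 263 and 178 TPM. The sums share genes and are not separate amounts. Ccl7 enters the sums of Ccr1, Ccr2 and Ccr3, and Ccl5 enters those of Ccr1 and Ccr3. Cxcr2 was at 0.06 TPM on average while its 5 ligands summed to 930, 1018 and 490 TPM, led by Cxcl2.

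Cxcr4 was high while Cxcl12, its chemokine, was at 0.03, 0.08 and 0.03 TPM, but Mif, a cytokine that also binds Cxcr4, was at 117, 108 and 79.7 TPM. For Ccr7, the ligand genes Ccl19 and Ccl21a had a count of 0 in every library, which allows at most 0.575 and 0.341 TPM for the annotated copy with the highest limit. Cx3cl1, the membrane-bound ligand of Cx3cr1, was at 0.13 ± 0.06 TPM, as low as its receptor. Of the ligands of Cxcr3, Cxcl10 supplied nearly all of the sum (132, 119 and 24.2 TPM), and Cxcl9 and Cxcl11 were under 1 TPM.

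Of 16 ligand genes tested for spread, 3 were called by edgeR, beside 1.56% of all genes, and they are named because they are few, after their values had been seen. Cxcl10 was 7.37, 7.13 and 5.39 log2 CPM (adjusted p = 2.39e-10), lowest in replicate 3. Cxcl10 was no longer called without replicate 3 (adjusted p = 0.999). Its receptor Cxcr3 was also lowest in replicate 3 but was not called, and that library was the lowest for 32.7% of all genes tested. Ccl5, a ligand of Ccr1 and Ccr3, was 3.02, 4.93 and 4.72 (adjusted p = 7.39e-09), and Ccl12, a ligand of Ccr2, was 4.84, 3.65 and 3.83 (adjusted p = 0.00135). Replicate 1 stood apart for both, and neither was called without it (adjusted p = 0.9998 for each).

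**Figure D4:**
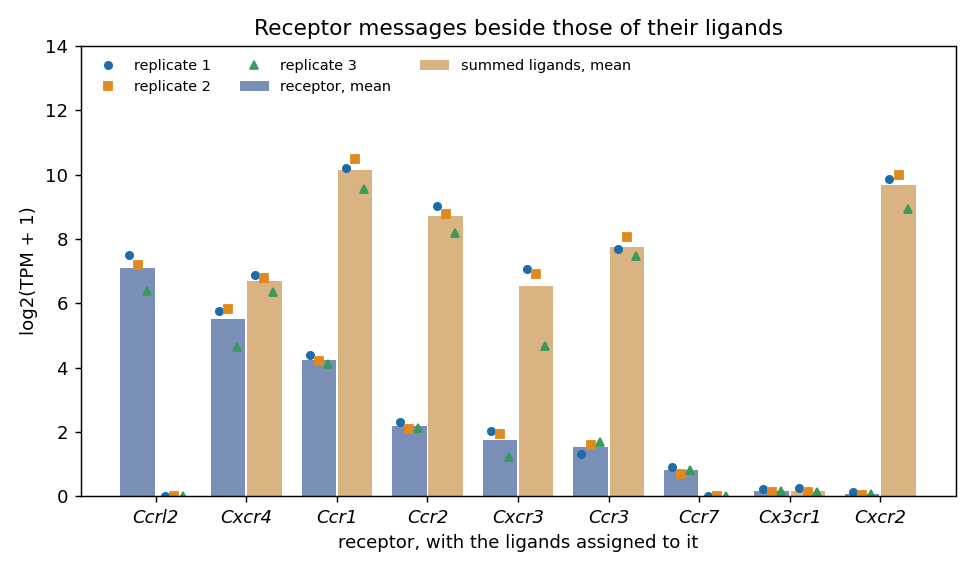
Level of each receptor and summed level of its assigned ligands as log2(TPM + 1) (bars, mean; points, libraries). A ligand assigned to several receptors enters each of their sums. Ccrl2 and Ccr7 stand beside ligands at 0, and Cxcr2 near 0 stands beside ligands that sum to 813 TPM on average.

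Of the 15 other chemokine and related receptors reported here, 1 reached 1 TPM, which was Cmklr1. Ccr1l1 (0.30 ± 0.09 TPM), Ccr9 (0.20 ± 0.10) and Ccr6 (0.02, 0.31 and 0.01) were above 0.1 TPM on average, the last from at most 3 counts. Cxcr1, Ccr8, Ackr2 and Ackr3 had a count of 0 in all libraries.

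Of the members, 5 lie on chromosome 9. Ccr1, Ccr3 and Ccr2 fall within 1 cluster between 123962124 and 124113557, with Ccr1l1 between Ccr1 and Ccr3. Along the cluster the mean level was 17.8 TPM at Ccr1, 0.30 at Ccr1l1, 1.92 at Ccr3 and 3.51 at Ccr2. Cxcr6 and Xcr1, at lower coordinates, were at 0.03 TPM each.

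**Figure D5:**
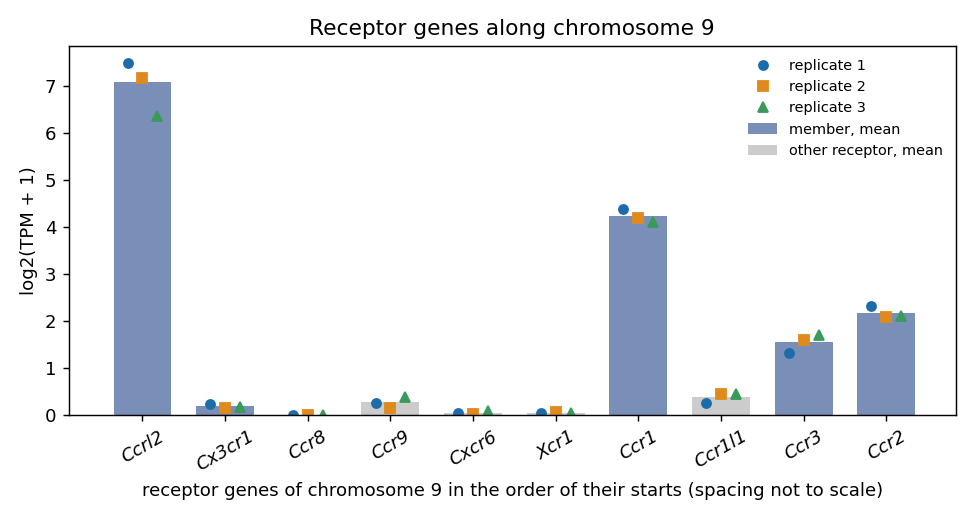
Level of the receptor genes of chromosome 9 as log2(TPM + 1), in the order of their starts (bars, mean; points, libraries; members in blue). Ccrl2 and Ccr1 are the highest, with genes near 0 between them.

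Of 34 genes listed for signalling and desensitisation of chemokine receptors, 33 were at 1 TPM or more, as were 43.0% of all nuclear coding genes. The median of the list was 32.2 TPM. It holds G protein subunits, arrestins, receptor kinases, RGS proteins and migration effectors, and also Cd74, Itch and Nup85. The list was chosen with earlier results of these data known. The highest were Rgs1, which shortens G protein signalling, at 359, 435 and 236 TPM, the GTPase Cdc42 at 250, 329 and 178, and the G protein subunit Gnai2 at 199, 230 and 143. None of the 33 tested was called for spread (0 called), and their median SD was 0.15 log2 CPM.

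Markers of other cells that carry these receptors were read beside them. All 6 eosinophil markers were under 0.1 TPM and summed to at most 0.20 TPM, with Epx, Prg3, Il5ra and Ear6 at 0, while the eosinophil receptor Ccr3 was at 1.92 TPM. None of the 8 T and NK cell markers reached 0.1 TPM (sum at most 0.14 TPM, Cd3e at 0) and the 3 B cell markers summed to at most 0.10 TPM, beside 2.39 TPM of Cxcr3. The 8 dendritic cell markers were each under 1 TPM and summed to 2.44, 2.75 and 2.48 TPM, led by Ccl22 (0.95), Fscn1 (0.75) and Siglech (0.38), beside Ccr7 at 0.75 TPM. The 6 mast cell and basophil markers summed to 0.62, 0.71 and 0.60 TPM, most of it Kit (0.51), with Fcer1a at 0. Of the neutrophil markers 5 of 11 reached 1 TPM: S100a9 (22.9 TPM), Csf3r (17.2), S100a8 (12.7), Mmp8 (5.98) and Ngp (2.80). Ly6g was at 0, and the list summed to 69.8, 64.8 and 54.2 TPM. Of the monocyte markers 3 of 8 reached 1 TPM: F13a1 (17.8), Plac8 (4.39) and Ly6c2 (4.05), and that list summed to 32.4, 32.5 and 16.8 TPM. The part of neutrophil and monocyte RNA in the levels of Cxcr2, Ccr1 and Ccr2 was not tested.

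For each member of at least 1 TPM, the most similar of 132 genes on the fixed lists was found by Euclidean distance in log2(TPM + 1) over the 3 libraries. This was Cd74 for Ccrl2 (distance 0.35), Dock2 for Cxcr4 (0.47), Csf3r for Ccr1 (0.29), Grk6 for Ccr2 (0.38), Pik3r6 for Cxcr3 (0.47) and Rgs14 for Ccr3 (0.51). With 3 points, likeness rests mostly on the level, and the Cd74 message, for instance, was at 183, 120 and 96.0 TPM.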

How the data were processed

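Total RNA libraries depleted of ribosomal RNA were made from cytosol in 3 replicates of 1 group. For each there are 3 tables on mm10 with GENCODE M21, per the deposited notes. The authors deposited expected counts and TPM per gene and, in a first transcript table, per transcript; the second transcript table holds estimated counts and TPM. The sources used here give neither the quantification tools nor any use of strand, so opposite-strand overlaps and near-identical copies are uncertain.

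Expected counts were rounded to whole numbers and tested in edgeR 4.0.16 (R 4.3.3). After filterByExpr and TMM, 1 mean was fitted per gene with trended dispersion, and the fit's chi-square p was adjusted by Benjamini and Hochberg over all 12250 genes tested; the procedure was tested on simulated data. With 3 counts as the limit, a gene without reads may reach 0.0792, 0.0808 and 0.0509 CPM. Replicate pairs differed beyond sampling noise (chi-square per degree of freedom 58.5 to 145). Spike-ins (97) and 26248 features with numeric IDs were left out. A gene of the receptor list is not reported here. Named were all members, other receptors from 0.1 TPM, and 1 most similar gene per member of at least 1 TPM. The 3 highest of each other list were named, except in the eosinophil, mast cell and basophil, T and NK cell and B cell lists. Also named, after their values had been seen, were genes at a count of 0, Kit, and single ligands beside their receptor. The same holds for genes on the span of a member or few enough to count. The members and lists were chosen with earlier results of these data known. Alternatives were another table, scaling, pseudocount or filter, DESeq2 1.42.0 size factors, and each library left out.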

Additional observations from a re-analysis of the deposited data

How the results depend on the processing

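No member tested was called for spread in any of the 7 alternative fits (0 called each), with edgeR adjusted p from 0.0625 for Ccr3 upward. Cxcr2 was tested in only 2 of these fits. The unadjusted p was under 0.05 in 6 of the 7 fits for Cxcr4, in 5 for Ccr3 and in 1 for Ccrl2. The count of all genes called was 191 in the reported fit and 104 with coding genes alone; it was 99, 110 and 64 without replicates 1, 2 and 3. The number of members at 1 TPM or more was 7 after rescaling to coding genes, 5 in the second table and 6 whichever library was left out. Neighbouring pairs beyond their spread numbered 3 when members under 1 TPM were left out, which leaves fewer pairs, and 4 to 6 with a library left out. Without length normalization Cxcr3 was 0.68 log2 CPM below Ccr3 on average (-0.68), and Cxcr4 exceeded Ccr1 by 0.35, not beyond its spread. The main transcript was the same for 5 of 5 members in the second table and for 4 to 5 with a library left out; Cxcr2 was the exception. Depth limits Cxcr2 and Cx3cr1, with 4 to 47 counts. No paired comparison of groups was possible because the 3 libraries form 1 group. Only genes were compared within each library.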
